A study of Mus musculus with 2 samples.

Results

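Mir122, Mir192, Mir194-1, Mir194-2 and Mir215 are mouse microRNA (miRNA) genes known from the liver, the kidney and the gut, organs that lie near the adrenal gland. The 5 genes were selected by name from the GENCODE M21 annotation, out of 2202 miRNA genes counted in the adrenal libraries. Small RNAs were sequenced from adrenal glands of female B6CASTF1/J mice, the first-generation offspring of a laboratory strain and a wild-derived strain, at an age of 36 days. No treatment, edited allele or second tissue was part of the design, so the 2 libraries, replicates 1 and 2, form 1 group. The labels number the females separately but give both the same donor identifier. The SD between the libraries may for that reason be technical rather than between mice. How the glands were dissected, and whether blood was flushed out, is not given in the sources used here.

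A miRNA is cut from a hairpin precursor and guides the silencing machinery to messenger RNAs, mostly through its seed (bases 2 to 8). Mir122 is the main miRNA of hepatocytes, where it is known for its part in lipid and cholesterol metabolism. Mir192, Mir194-1, Mir194-2 and Mir215 are known from epithelium of the kidney and intestine and also from liver, where they are studied in epithelial differentiation, the cell cycle and fibrosis. Mir122 is also found in plasma, which makes it of use when judging carry-over of tissue or blood.

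The 4 kidney and gut genes form 2 clusters of like build, each with a miR-194 hairpin upstream of a miR-192 or miR-215 hairpin. Mature sequences came from RefSeq (GRCm38.p6), where 4 of the 5 genes matched; Mir122 is named only. The mature RNAs below are shown because they bear on which reads could be assigned to a single gene. Capitals mark the seed.
miR-192-5p: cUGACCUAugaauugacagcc
miR-215-5p: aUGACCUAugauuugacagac
miR-194-5p (same from Mir194-1 and Mir194-2): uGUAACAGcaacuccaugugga
miR-194-2-3p: cCAGUGGGgcugcuguuaucug
miR-194-1-3p: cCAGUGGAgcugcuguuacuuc

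miR-192-5p and miR-215-5p had the same seed and were the 2 mature miRNAs in the table of 1679 that carried it. Counted from the 5′ end, with the base of miR-192-5p first, they differed by C1A, A12U and C20A, and the longest stretch they shared was 10 bases. The 3p arms of the miR-194 genes had different seeds and differed by G8A, U19C, C20U and G22C, with miR-194-2-3p first. The 5p arms were identical over all 22 bases.

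The hairpins show how far the identity reached, with the mature arms in capitals.
Mir194-2: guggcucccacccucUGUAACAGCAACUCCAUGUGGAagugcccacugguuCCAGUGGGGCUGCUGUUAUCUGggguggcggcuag
Mir194-1: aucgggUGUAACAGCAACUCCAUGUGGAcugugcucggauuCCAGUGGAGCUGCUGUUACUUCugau
The longest stretch that these hairpins shared was 22 bases, the mature 5p arm itself, and over the whole alignment they were 62.8% identical. A read of exactly miR-194-5p matches both loci, and reads mapped to several places were in no gene's count. The counts of Mir194-1 and Mir194-2 therefore lack reads of exactly miR-194-5p and do not give its level. They can hold reads of the 3p arms or reads that run past the shared stretch, but which they held was not tested. Reads mapped to several places made up 28.5% of replicate 1 and 30.6% of replicate 2, and how many of them were miR-194-5p was not tested. Mir192 and Mir215 shared no stretch of 20 bases with another counted miRNA gene, and neither did Mir122, whose longest shared stretch was 12 bases.

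By position in mm10, Mir194-2 (chromosome 19, 6264643 to 6264728, plus strand) lay 115 bases upstream of Mir192 (6264844 to 6264932). Neither overlapped another annotated gene, and the coding gene Atg2a ended 2307 bases before Mir194-2. Mir194-1 (chromosome 1, 185313319 to 185313385, plus strand) lay 195 bases upstream of Mir215 (185313581 to 185313692). Both lay in an intron of Iars2, which is on the opposite strand. On the same strand, Mir194-1 fell in an intron and Mir215 in an exon of the noncoding gene 2010103J01Rik.

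Mir122 (chromosome 18, 65248861 to 65248926, plus strand) lay in an exon of the long noncoding gene AC157910.3. None of the 5 genes had a counted GENCODE miRNA gene on the other strand. Their counts without strand equalled their sense counts in both libraries, and their antisense counts were 0.

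Replicate 1 held 5397603 sense miRNA reads and replicate 2 held 3029977, a ratio of 1.78. Levels are counts for each 1000000 sense miRNA reads of the library (CPM). They are not divided by length, since 1 read covers a mature miRNA. The limit for a gene with 0 counts, set at 3 counts, was 0.556 CPM in replicate 1 and 0.990 in replicate 2. These limits and the intervals cover counting error only. Levels of miRNAs of endocrine cells and vessels were read beside the tissue label. They cannot test it, because other organs also hold such cells. Mir375, known from endocrine cells, had 28922 and 22246 CPM, and endothelial Mir126a had 133209 and 69285 CPM. Messenger RNAs that define the adrenal cortex are not measured by this assay.

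Mir122 was the highest of the 5 genes in both libraries, and its level differed widely between them. It had 8113 counts in replicate 1, or 1503 CPM (95% Wilson interval 1471 to 1536), and 443 counts in replicate 2, or 146 CPM (133 to 160). The mean was 825 ± 959 CPM (SD, n = 2), so the SD exceeded the mean. Mir122 ranked 58 of 2202 genes in replicate 1 and 154 in replicate 2. Its neighbours in mean level were Mir376a (854 ± 239 CPM) and Mir487b (851 ± 272) above it, and Mir92-1 (780 ± 401) and Mir1839 (777 ± 500) below it (n = 2 for each). These 4 means were within the spread of Mir122, so its place among them cannot be set.

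Mir192, the better measured of the pair that shares a seed, had 386 counts in replicate 1, or 71.5 CPM (64.7 to 79.0), and 75 counts in replicate 2, or 24.8 CPM (19.7 to 31.0). Mir194-2, its upstream neighbour, had 318 counts, or 58.9 CPM (52.8 to 65.8), and 99 counts, or 32.7 CPM (26.8 to 39.8). Both genes had a higher CPM, scaled by total counts, in replicate 1. Against counting error alone, an exact binomial test called 58.5% of all 434 tested genes as different between the libraries. It called 30.2% as higher in replicate 1. Their means were 48.1 ± 33.1 and 45.8 ± 18.6 CPM (SD, n = 2), ranks 213 and 216 of all genes. Around Mir192 in mean level were Gm49347 (50.8 ± 3.25 CPM) and Mir323 (48.3 ± 19.7) above it and Mir543 (47.7 ± 19.3) and Mir362 (46.7 ± 25.9) below it.

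Both genes of the chromosome 1 cluster had few counts in replicate 1 and 0 in replicate 2. Mir215, which has the same seed as Mir192, had 23 counts in replicate 1, or 4.26 CPM (2.84 to 6.39), and 0 in replicate 2. Mir194-1 had 5 counts in replicate 1, or 0.926 CPM (0.396 to 2.17), and 0 in replicate 2. The limit of 0.990 CPM in replicate 2 lay above the level of Mir194-1 in replicate 1, so a difference in this gene was not detectable at this depth. In replicate 1, where both were counted, Mir192 had 16.8 times the counts of Mir215 (exact 95% interval 11.0 to 26.8).

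Mir122, Mir192 and Mir194-2, 3 of the 5 genes, reached 10 counts in each library, as did 339 of all 2202 genes. The order of means was Mir122, Mir192, Mir194-2, Mir215 and Mir194-1. Mir192 was above Mir194-2 in replicate 1 and below it in replicate 2, so these neighbours were not ranked. The lowest value of Mir192 or Mir194-2 in either library was above the highest value of Mir215 or Mir194-1. These are orders of read counts, and the miR-194 genes lack reads of exactly miR-194-5p.

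**Figure D1:**
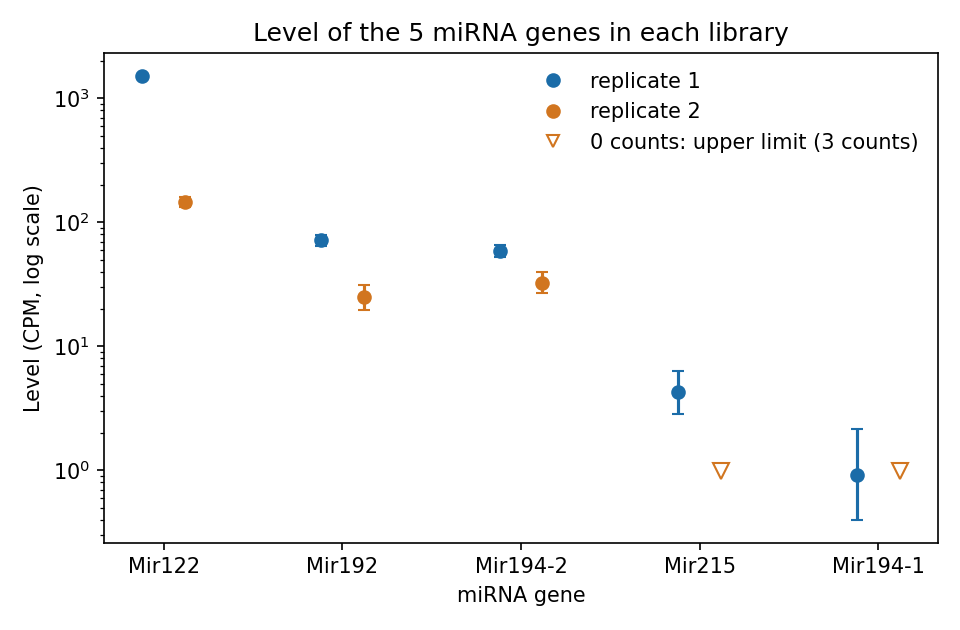
Level of each gene (CPM, log scale) in replicate 1 (blue) and replicate 2 (orange). Bars are 95% Wilson intervals, and open triangles mark 0 counts at the limit of 0.990 CPM. Mir122 had 1503 CPM in replicate 1 and 146 CPM in replicate 2, and both chromosome 1 genes had counts in replicate 1 alone.

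Together the 5 genes held 0.164% of the sense miRNA counts in replicate 1 (8845 counts, 95% Wilson interval 0.160 to 0.167%) and 0.0204% in replicate 2 (617 counts, 0.0188 to 0.0220%). Most of this was Mir122, with 91.7% of the 5 genes' counts in replicate 1 (91.1 to 92.3%) and 71.8% in replicate 2 (68.1 to 75.2%). The 4 kidney and gut genes held 0.0136% (0.0126 to 0.0146%) and 0.00574% (0.00495 to 0.00666%). These shares leave out reads of exactly miR-194-5p. Fewer cells of a type and less RNA per cell cannot be told apart in RNA from whole tissue.

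Ratios between genes of 1 library do not depend on how the libraries are scaled to each other. Mir122 had 21.0 times the counts of Mir192 in replicate 1 (exact 95% interval 19.0 to 23.3) and 5.91 times in replicate 2 (4.62 to 7.65), a change of 3.56-fold (2.69 to 4.66). Against Mir194-2 it had 25.5 times the counts in replicate 1 (22.8 to 28.6) and 4.47 times in replicate 2 (3.59 to 5.62), a change of 5.70-fold (4.41 to 7.32). Mir122 thus stood in different proportions to Mir192 and to Mir194-2 in the 2 libraries, by more than counting error. So did many genes, since the exact binomial test of counting error called 58.5% of all 434 tested genes. Mir215 and Mir194-1, with 0 counts in replicate 2, were not compared with Mir122. Within the chromosome 19 cluster, the ratio of Mir192 to Mir194-2 was 1.21 in replicate 1 (1.04 to 1.41) and 0.758 in replicate 2 (0.554 to 1.03). That change was 1.60-fold (1.13 to 2.27), beyond counting error but smaller than those of Mir122.

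**Figure D2:**
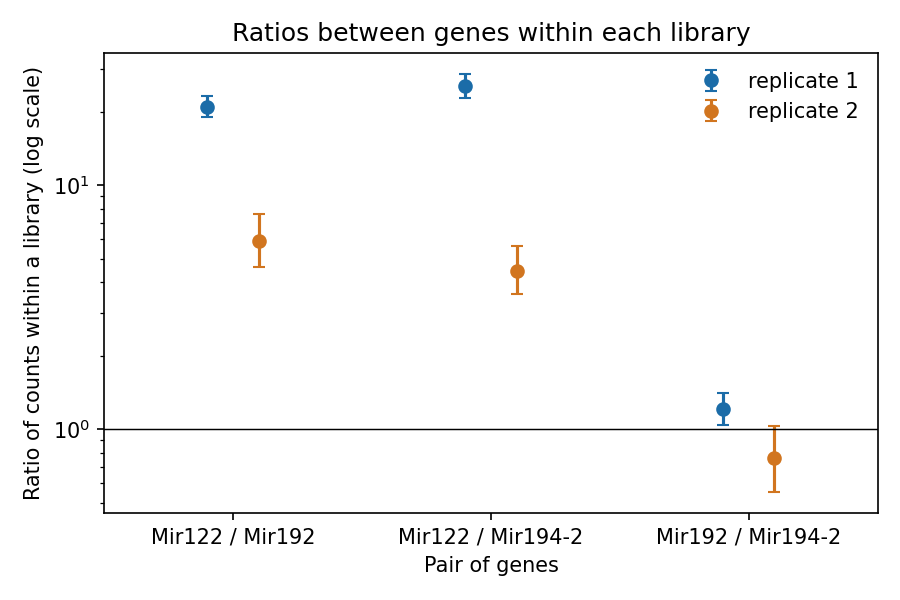
Ratio of counts of 2 genes within a library (log scale) for replicate 1 (blue) and replicate 2 (orange), with exact 95% intervals of counting error. The ratio of Mir122 to Mir192 was 21.0 and 5.91, and that of Mir192 to Mir194-2 was 1.21 and 0.758, on either side of 1.

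The 3 genes that reached 10 counts in each library were higher in replicate 1. After TMM scaling, which sets the libraries to a common scale through the bulk of genes, Mir122 was 8.34-fold higher (exact 95% interval 7.58 to 9.20). Mir192 was 2.34-fold higher (1.83 to 3.04) and Mir194-2 was 1.46-fold higher (1.16 to 1.85). Mir215 was 3.49-fold higher with the 0 of replicate 2 set to the limit of 3 counts, a value that leaves out the counting error of replicate 1. It passed the minimum of 10 counts in all through replicate 1 alone. Mir215 was among the genes tested, but for that reason its call is not used and its fold is a description. Mir194-1, with 5 counts in all, was not tested.

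A two-sided exact binomial test, adjusted by Benjamini-Hochberg over 434 genes, called Mir122, Mir192 (adjusted p = 8.75e-13) and Mir194-2 (adjusted p = 0.00154). Of all tested genes this test called 58.5%, 30.2% as higher in replicate 1 and 28.3% as higher in replicate 2. The test measures counting error between 2 libraries and says nothing of a condition. Counting error was smaller than the spread between these libraries, which edgeR put at a pooled coefficient of variation of 41.6%. With that spread as the error, edgeR's exact test called 0% of the 434 genes, while 24 had an unadjusted p under 0.05. Mir122 then had an adjusted p of 0.239 (unadjusted 0.00110), and both Mir192 and Mir194-2 had 0.999 (unadjusted 0.175 and 0.541). The pooled spread was estimated from the same 2 libraries, these genes included.

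The median log2 ratio (replicate 1 over 2) was 1.23 over these 3 genes and 0.02 over the 339 genes with 10 or more counts in each library. Scaling by total counts moved every ratio by 0.30 on the log2 scale, which made Mir122 10.3-fold higher (9.34 to 11.3). It gave 189 genes called higher in replicate 1 and 83 in replicate 2, against 131 and 123 with TMM. The log2 ratio rose with the GC content of the hairpin by 0.29 for each 10 percentage points over 284 genes. Mir122 had a hairpin GC of 42.4% and Mir215 43.8%, under the median of 51.3%, while Mir192 had 50.6% and Mir194-2 60.5%. With this trend removed, an alternative chosen after seeing the data, Mir194-2 had a log2 ratio of 0.22 and lost its call (exact binomial test, adjusted p = 0.285).

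**Figure D3:**
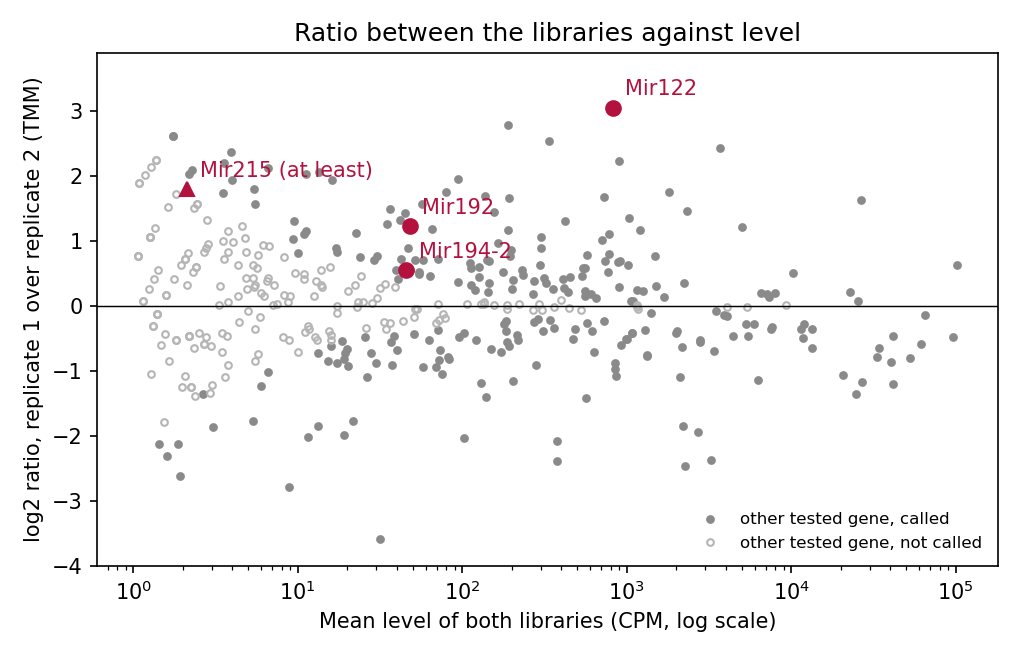
Log2 ratio of replicate 1 over replicate 2 (TMM) against mean level (CPM, log scale) for tested genes. The 4 labelled genes are red. Mir215 is drawn at 1.80, with the 0 of replicate 2 set to 3 counts and the counting error of replicate 1 left out. Filled grey points were called by the exact binomial test, and 2 other genes with 0 counts in a library are not drawn. Mir122 lies highest among the points drawn, at 3.06.

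Among 283 other genes that reached 100 counts in the libraries together, the nearest to Mir122 in log2 ratio were mmu-mir-3535 (2.79), Mir301 (2.55) and Mir195a (2.43). The nearest to Mir192 (1.23) were Mir125a (1.22), Mir877 (1.19) and Mir486 (1.27), of which Mir486 is known from red cells. With 2 libraries, likeness is that of 1 ratio.

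Lists of miRNAs of blood and of other epithelia were read beside these genes. All 3 red-cell genes were called higher in replicate 1 by the exact binomial test, as were 30.2% of all 434 tested genes. Their summed level was 1210 CPM in replicate 1 and 576 in replicate 2. Mir451a, processed without Dicer in red-cell precursors, was 1.50-fold higher, Mir144 was 2.09-fold higher and Mir486 2.41-fold. These folds were near those of Mir192 and Mir194-2 and below that of Mir122. Folds of this size were not particular to red-cell genes, since endothelial Mir126a was 1.56-fold higher. In log2 ratio, Mir192 ranked 53 and Mir194-2 134 of the 434 tested genes. All 3 white-cell genes were called higher in replicate 2, as were 28.3% of all tested genes, with 991 and 1685 CPM summed. Mir142, Mir223 and Mir150, of blood-forming, myeloid and lymphoid cells, were 2.68-fold, 2.64-fold and 1.63-fold higher in replicate 2. With the pooled spread as the error, edgeR's exact test called 0% of all 434 genes, these blood genes included. The part of blood in the levels of Mir122 or the kidney and gut genes was not tested.

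The general epithelial list, the miR-200 family with Mir141, held 50.2 CPM in replicate 1 and 37.6 in replicate 2. Of its 5 tested genes, Mir200b was called higher in replicate 1 (77 and 14 counts) and Mir141 higher in replicate 2 (15 and 24 counts). Mir200a (7 and 8 counts), Mir200c (141 and 61) and Mir429 (31 and 7) were not called. The median log2 ratio of the list was 0.07. Of all 434 tested genes, 30.2% were called higher in replicate 1 and 28.3% in replicate 2. The acinar list of the pancreas, another neighbouring organ, was almost absent. Mir216a had 0 counts in both libraries, Mir216b had 2 and 1, and Mir217 had 3 and 2, so their sum was 0.926 and 0.990 CPM.

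By counted reads, which leave out those of exactly miR-194-5p, the 5 genes were a small part of the libraries beside the neuroendocrine list. From which cells the reads of that list came was not tested. The 5 neuroendocrine genes (Mir375, Mir7-1, Mir7-2, Mir7b and Mir137) summed to 32103 and 25898 CPM, compared with 1639 and 204 CPM for the 5 liver, kidney and gut genes. Most of the neuroendocrine sum was Mir375, with 28922 and 22246 CPM. Of those neuroendocrine genes, 1 was called higher in replicate 1 and 2 in replicate 2, with a median log2 ratio of 0.04. The shares over all 434 tested genes were 30.2% and 28.3%. The part of adhering liver, kidney or gut tissue in the levels of the 5 genes was not tested.

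**Figure D4:**
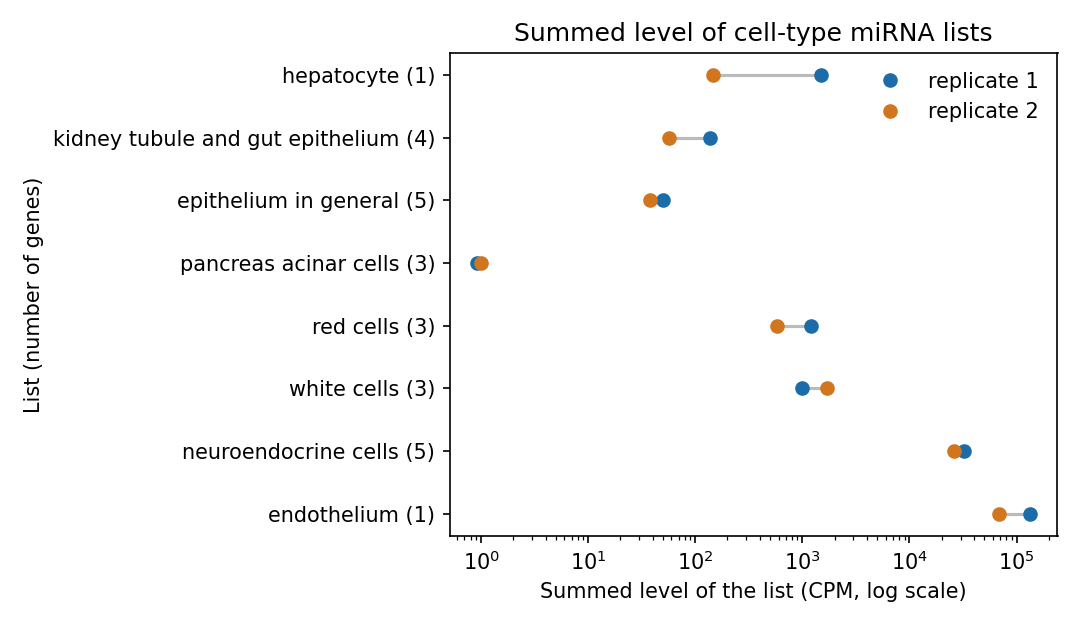
Summed level (CPM, log scale) of each list in replicate 1 (blue) and replicate 2 (orange), with the number of genes in brackets. The hepatocyte gene Mir122 had the widest gap, 1503 against 146 CPM, the red-cell list was higher in replicate 1, and the white-cell list was higher in replicate 2.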

How the data were processed

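MicroRNA-seq libraries from 2 adrenal samples were analysed. The authors deposited raw counts of reads for each miRNA gene, in 3 columns without names. The 4 summary entries at the top belong to no gene and stayed out of totals and tests. Assembly mm10 and GENCODE M21 annotation come from the notes deposited with each library. Which aligner, counter and trimming were used is not given in the sources used here. The columns were taken as counts without strand, sense and antisense. Each sums to the same total once reads without a feature and ambiguous reads are added. These equal sums do not show which column is which, so the reading is an assumption. Sense counts were used.

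Ratios used TMM effective library sizes (edgeR 4.0.16, R 4.3.3) and genes that reached 10 counts in the libraries together. The log2 ratio of a gene for calls and medians had a prior of 0.5 counts, while folds are ratios of counts. Calls came from the exact binomial test, two-sided (scipy 1.17.1), at a threshold of 0.05 after adjustment by Benjamini-Hochberg (statsmodels 0.14.6). edgeR's quasi-likelihood test needs replicates on each side and could not be fitted. Hairpins were aligned globally with Biopython 1.88. Alternatives were other scalings (DESeq2 1.42.0 size factors among them), count minimums, strand, thinning, prior and error.

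The genes, lists and tests were chosen with earlier results of these data known. The text names the 5 genes, genes of the lists, the 2 genes on each side of Mir122 and Mir192 in mean CPM, and the 3 nearest to each in log2 ratio with at least 100 counts.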

Additional observations from a re-analysis of the deposited data

How the results depend on the processing

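The direction of the ratio between the libraries was kept by Mir122, Mir192 and Mir194-2 under each alternative run. Replacing counting error by the pooled spread left the log2 ratios at 3.06, 1.23 and 0.55, and that of Mir215 at a bound of 1.80, but ended their calls. The log2 ratio of Mir215 stayed at 1.80, with its 0 set to 3 counts. Mir215 had entered the test through replicate 1 alone, so its call is not used. The genes called then went from 254 to 0 in all and from 131 to 0 for those higher in replicate 1 (edgeR's exact test), with 24 at an unadjusted p under 0.05. Removing the GC trend ended the call of Mir194-2, whose log2 ratio became 0.22. For Mir122 the log2 ratio ran from 2.99 with DESeq2 size factors to 3.36 with total counts. A minimum of 100 counts in both libraries kept Mir122 and left out Mir192 and Mir194-2, which had 75 and 99 counts in replicate 2. Mir215 has no value with at least 10 counts in each library. Levels with 1 library left out are the values of the other library. Depth limits Mir215 and Mir194-1, which rest on 23 and 5 reads of 1 library.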

Other observations

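The RefSeq table holds a gene, Mir122b, at 65248863 to 65248921 on chromosome 18, inside the interval of the Mir122 hairpin. It is not among the 2202 counted genes, and the reads on the strand opposite to Mir122 numbered 0 in both libraries. Thinning replicate 1 to the total of sense miRNA reads in replicate 2 left 4550 counts for Mir122 against 443, 208 against 75 for Mir192, 173 against 99 for Mir194-2 and 13 against 0 for Mir215. Mir194-1 then had 3 counts against 0.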
